A study of Homo sapiens with 12 samples.

Results

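SK-N-Be(2)C neuroblastoma cells that had become resistant to doxorubicin while intermittently exposed to vorinostat (DoxR-v) were compared with their untreated wild-type parents (WT) on whole-genome expression arrays. The comparison used 6 of the 12 arrays of the series, all 3 of each group, and the arrays were chosen by their labels, not by a measured value. SK-N-Be(2)C is an established human neuroblastoma line from bone marrow. The DoxR-v cells had been carried through stepwise increases of doxorubicin, an anthracycline that poisons topoisomerase II, with a vorinostat (SAHA, a histone deacetylase inhibitor) exposure at every logarithmic step. The WT cells received neither drug. The 3 arrays of cells selected in doxorubicin alone (DoxR) and the 3 of wild-type cells given only vorinostat (WT-v) entered the fit for its estimate of spread and are quoted where they place a gene. The labels name the 3 specimens of a group as replicates and no source says that they came from separate cultures or separate selections, so the p-values measure only the spread between these specimens. WT, DoxR, WT-v and DoxR-v arrays are shared by the comparisons quoted side by side, so those comparisons are not independent of each other.

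Neuroblastoma arises from the sympathetic branch of the neural crest, and most of its lines keep the machinery that makes noradrenaline from tyrosine. Their identity is held by a circuit of transcription factors that includes HAND2, GATA3, PHOX2A, ISL1 and MYCN. Doxorubicin traps topoisomerase II on DNA and also generates oxidants, and vorinostat raises histone acetylation, so both agents reach the transcription of many genes at the same time.

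Values are log2 normalized signals of 1 probe per gene, the brightest of the probes that were detected on at least 1 array (detection p under 0.01), which left 12138 genes. A gene was called when its adjusted p was under 0.1 and its fold change over 1.5. Where a group was detected on none of its arrays, only a bound on its level exists, and the difference is written as at least N-fold, the detected mean set against the lowest detected signal of the other group's arrays or the probe's own signal if that was higher. Such bounds hold for these normalized values only. The 3 WT arrays correlated at 0.981 to 0.985 with each other, the DoxR-v arrays at 0.987 to 0.991, and arrays of different groups at 0.953 to 0.967. Between 31.3% and 33.7% of probes were detected on each of the 6 arrays. All 10 measured noradrenergic markers were detected on every array of both groups. The Schwann cell markers SOX10, S100B, CDH19 and FOXD3 and the leukocyte marker PTPRC were detected on no array of either group. ERBB3, the remaining Schwann and glial marker measured, was detected on 1 WT and 3 DoxR-v arrays and called higher at 0.76, and of the 11 measured blood markers 8 were detected on none of these arrays, while CD68 was detected on all 6 and CD14 on 3 WT and 2 DoxR-v arrays. The part of such cells in the results was not tested. In RNA from whole cultures, fewer cells of a kind and less RNA per cell cannot be told apart.

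Of the 12138 genes, 3138 (25.9%) were called, 1611 (13.3%) higher and 1527 (12.6%) lower in DoxR-v cells. The median difference over all genes was 0.02 on the log2 scale. With median scaling in place of quantile normalization the split was 3206 higher and 778 lower, and the median over all genes moved to 0.23, so the counts of many gene lists below are given under both scalings. Each list's count is to be read against the shares over all genes, 13.3% higher and 12.6% lower, and a list near them does not stand apart. Counts with median scaling are to be read against 3206 higher and 778 lower of all 12138 genes instead. A changed balance under that scaling can be the shift of all genes. A difference beyond 2-fold was reached by 540 genes that were higher and 533 that were lower. The 3 arrays of each group did not overlap in 2937 of the called genes, and 45% of all genes had such separate groups in either direction. A published gene list for DoxR-v cells rests on these same arrays and on those of a second line, SK-N-SH. It keeps genes that differed in DoxR-v cells of both lines, leaving out those that differed in DoxR or WT-v cells. Its members are no independent evidence of their direction. Of the called genes, 2779 lay outside it. Lying outside does not make a gene unreported, since the same study gave values for TH, ABCB1, BDNF, ABCC5 and ABCC9. Members of the list that are named below include SST, PROK2, PON2, EPAS1, CALD1, TUBB4A, GSDME, CCNO, ASS1, HMGCS1, NSDHL, GSTP1, ST8SIA2, ATP6AP1 and MAP1LC3A. For SST, PON2 and EPAS1 the study also reported increases by quantitative RT-PCR.

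Outside that list, TH, GRIN1 and NPY were among the largest increases. TH, tyrosine hydroxylase, the rate-limiting enzyme of catecholamine synthesis, measured 7.48, 8.12 and 7.86 in WT cells and 13.45, 13.47 and 13.27 in DoxR-v cells. The groups were far apart, with a difference of 5.58 ± 0.16 (SE; adjusted p = 2.4e-10, limma). WT-v cells were as high for TH, at a mean of 13.39, and DoxR cells were below WT, at 4.46. NPY, a peptide co-released with noradrenaline, stood at 8.48, 9.49 and 8.60 in WT and 14.13, 13.99 and 13.96 in DoxR-v cells. Its increase was 5.17 ± 0.22 (adjusted p = 5.5e-09, limma). GRIN1, the obligatory subunit of NMDA glutamate receptors, was detected on no WT array and measured 11.13, 11.15 and 10.77 in DoxR-v cells, at least 41.7-fold higher (adjusted p = 2.4e-10). GRIN1 was also high in DoxR cells, at a mean of 10.67, and lower in WT-v cells, at 8.46.

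**Figure D1:**
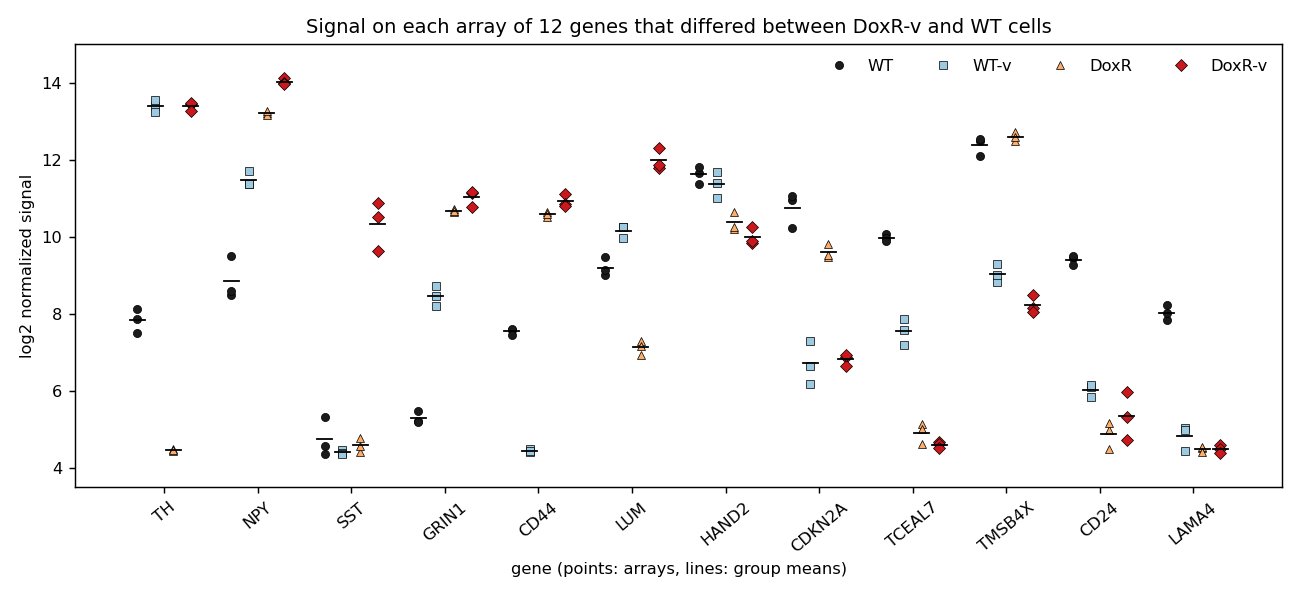
Log2 normalized signal (vertical axis) of 12 genes on every array, with points for arrays and lines for group means of the 4 groups. TH and LUM lay above WT in DoxR-v and WT-v cells and below WT in DoxR cells, SST was high only on the 3 DoxR-v arrays among the 12, and TMSB4X was low in DoxR-v and WT-v cells.

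Other large increases concerned the cytoskeleton, adhesion and signaling. LCP1, an actin-bundling plastin usually found in blood cells, rose at least 16-fold from undetected WT signals to 9.76, 9.76 and 9.39. MSN, moesin, which ties actin to the plasma membrane, went from 6.62, 7.24 and 6.22 to 10.38, 9.88 and 10.25, a rise of 3.48 ± 0.27. CD44, the hyaluronan receptor, went from 7.58, 7.60 and 7.45 to 11.11, 10.84 and 10.80, and WT-v cells were below WT for it, at a mean of 4.44. Separate groups were a condition of the naming rule, so they add nothing for these 3 genes, and 45% of all genes had them. GNG11, a G protein gamma subunit, increased by 3.99, SOCS2, a suppressor of cytokine signaling, by 3.88, CNTNAP2, a neurexin-family adhesion molecule, by 3.42, DUSP6, a phosphatase of ERK, by 3.24 and NEFH, the heavy neurofilament, by 3.22. Opposite positions of the other lines were found for NEFH, which averaged 5.82 in DoxR and 5.35 in WT-v cells against 8.28 in WT and 11.50 in DoxR-v cells. MECOM, a transcriptional regulator of blood stem cells, was at least 13.3-fold higher by its brightest probe, while another probe of the gene differed by 0.03 only. BDNF, a neurotrophin, was at least 8.72-fold higher by its brightest probe, with other probes between -0.13 and 0.18. IFI16, an interferon-inducible DNA sensor, was undetected in WT cells and at 9.63, 8.77 and 8.85 in DoxR-v cells, at least 10.9-fold higher.

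The largest decreases outside that list included regulators of actin and the cell cycle. TCEAL7, an X-linked member of the TCEAL family, measured 10.06, 9.96 and 9.89 in WT cells and was detected on no DoxR-v array, at least 21.5-fold lower (adjusted p = 8.6e-10). TMSB4X, thymosin beta-4, which sequesters actin monomers, fell from 12.47, 12.54 and 12.10 to 8.15, 8.04 and 8.48, and thus decreased by 4.14 ± 0.18. In DoxR cells TMSB4X averaged 12.59 against 12.37 in WT. CDKN2A, which encodes the p16 and ARF inhibitors, went from 10.94, 11.04 and 10.22 to 6.86, 6.63 and 6.94. It decreased by 3.92, and by 3.62 with its other probe. CD24, a small surface glycoprotein whose near-identical copies in the genome the probe may not separate, went from 9.45, 9.26 and 9.49 to 5.98, 5.30 and 4.72. PITX1, a homeobox factor, fell by 3.74, PGAM2, the muscle phosphoglycerate mutase, by 4.03, GADD45G, a stress-response gene, by 3.27, and NELL1, a secreted protein, by 3.19. AMHR2, the receptor of anti-Müllerian hormone, was at least 10.5-fold lower, RAB31, an endosomal GTPase, at least 7.99-fold lower, and GABRB1, a GABA-A receptor subunit, at least 7.67-fold lower. For NELL1 and GABRB1 the WT-v means of 9.13 and 8.54 lay close to the WT means of 8.96 and 8.48.

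The transcription factors of noradrenergic identity were lower more often than higher. Of 22 measured, 1 was called higher and 8 lower, against 13.3% and 12.6% of all genes, with a median of -0.15 (3 higher and 4 lower with median scaling). The number lower was 5 without WT replicate 1, WT replicate 2, DoxR-v replicate 1 or DoxR-v replicate 2. HAND2, which specifies sympathetic neurons, measured 11.66, 11.81 and 11.38 in WT and 9.82, 9.89 and 10.26 in DoxR-v cells, a decrease by 1.63 ± 0.20 (adjusted p = 6.9e-05). GATA3 went from 9.74, 9.75 and 9.53 to 8.89, 9.13 and 9.13 and thereby fell by 0.62. LMO3, a LIM-only transcriptional cofactor, was undetected in DoxR-v cells and at least 1.71-fold lower, a call that the authors' own normalized values did not give. MYCN, the amplified oncogene of these cells, was not called, at 14.55, 14.18 and 14.91 in WT and 14.69, 14.87 and 14.34 in DoxR-v cells. PHOX2A differed by 0.25 (adjusted p = 0.25) and ISL1 by -0.12 (adjusted p = 0.63), and their groups overlapped. INSM1 was called lower, but its groups overlapped at 7.98, 5.95 and 6.62 against 6.37, 5.17 and 4.82.

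Among 14 genes of catecholamine synthesis, storage and breakdown, 3 rose and 2 fell. Apart from TH, the increase of MAOA, the oxidase that degrades monoamines, was from 5.63, 5.53 and 6.02 to 7.68, 7.65 and 6.89. PNMT, which converts noradrenaline to adrenaline, was called higher although it was detected on a single DoxR-v array and no WT array, and the authors' normalized values did not call it. SLC18A1, a vesicular monoamine transporter, fell by 1.00 ± 0.17, to 9.93, 10.38 and 9.78 from 11.26, 10.77 and 11.07. SLC6A2, the noradrenaline transporter of the plasma membrane, fell by 0.79, except with median scaling, where it was not called. DBH, which makes noradrenaline from dopamine, had overlapping groups, at 13.19, 12.56 and 13.02 in WT and 13.27, 13.38 and 12.73 in DoxR-v cells. DDC, the decarboxylase between TH and DBH, was higher by 0.54 with separate groups (adjusted p = 0.0090), below the fold limit.

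Of 25 neuropeptides, granins and their processing enzymes, 7 rose and 4 fell (median -0.21). Some genes of this kind respond to cyclic AMP through the octamer TGACGTCA, which reads the same on both strands. The promoters of 4 peptide genes are shown, 3 that hold it and that of NPY, which does not. The sequences are from RefSeq on GRCh38.p14, printed 5′ to 3′ on the gene's strand up to the base before the gene's start, with the octamer in capitals.
SST, chr3:187670395-187670544, minus strand: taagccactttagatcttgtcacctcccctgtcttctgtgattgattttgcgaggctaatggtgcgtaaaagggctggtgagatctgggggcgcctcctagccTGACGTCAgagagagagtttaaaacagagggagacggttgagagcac
VGF, chr7:101165570-101165719, minus strand: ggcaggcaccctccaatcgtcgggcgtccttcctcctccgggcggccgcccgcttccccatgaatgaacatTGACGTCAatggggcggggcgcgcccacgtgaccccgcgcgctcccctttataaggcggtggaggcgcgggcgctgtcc
CHGA, chr14:92923000-92923149, plus strand: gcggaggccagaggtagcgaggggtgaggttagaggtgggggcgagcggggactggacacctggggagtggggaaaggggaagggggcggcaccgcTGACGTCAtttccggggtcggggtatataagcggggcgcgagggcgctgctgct
NPY, chr7:24284040-24284189, plus strand: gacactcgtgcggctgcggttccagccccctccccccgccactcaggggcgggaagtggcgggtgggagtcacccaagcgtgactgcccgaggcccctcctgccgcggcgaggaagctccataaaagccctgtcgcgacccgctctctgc
The octamer began at position -47 in SST, -79 in VGF and -54 in CHGA, and it was not found in the 250 bases searched before NPY. It occurred in 1.65% of all 35116 promoters of the table, in 3.06% of the 9701 measured genes that had one, and in 4 of 19 matched peptide genes (SST, CARTPT, CHGA and VGF). A match describes letters and was not tied to binding by any measurement.

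Of the 4 octamer genes, SST and VGF rose and the other two did not pass the test. SST, somatostatin, was detected on no WT array and measured 10.51, 9.61 and 10.86 in DoxR-v cells, at least 25.9-fold higher (adjusted p = 2.9e-08). DoxR and WT-v cells had low SST means as well, of 4.59 and 4.40. VGF, a secreted neuroendocrine peptide precursor, rose by 0.76 ± 0.18 from 13.05, 12.90 and 13.46 to 14.09, 13.97 and 13.63. CHGA, chromogranin A, differed by 0.02 with overlapping groups, at 14.62, 14.45 and 14.79 against 14.57, 14.64 and 14.70. CARTPT, a neuropeptide precursor, was near background, at 6.70, 4.81 and 4.64 in WT and 5.92, 6.54 and 5.58 in DoxR-v cells, and its groups overlapped (0.63, adjusted p = 0.30). PROK2, prokineticin 2, was undetected in WT and at 9.58, 8.93 and 9.13 in DoxR-v cells, at least 11.9-fold higher. CALCB, a calcitonin gene-related peptide, was at least 10.6-fold higher, NMU, neuromedin U, rose by 3.08 and VIP by 1.04. Downward, SCG2, secretogranin II, went from 13.36, 13.14 and 13.81 to 12.68, 12.42 and 12.14, and CRH and ADM fell by 0.80 and 1.34. For ADM, WT replicate 1 stood above the other WT arrays, at 8.81 against 7.55 and 7.44.

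Synaptic vesicle genes leaned upward, with 10 of 36 higher, 4 lower and a median of 0.24 (15 higher and 0 lower with median scaling). SNAP25, a SNARE of neurotransmitter release, rose by 0.94 ± 0.15 from 10.82, 10.62 and 10.98 to 11.87, 11.51 and 11.87. SYT4, a synaptotagmin, rose by 1.01, and VAMP2, the vesicle SNARE, by 1.51. SLC32A1, the vesicular GABA transporter, was at least 2.78-fold higher and DNM1, dynamin 1, at least 2.63-fold higher. SYT1 (-0.23, adjusted p = 0.39) and SYP (-0.52, adjusted p = 0.11), widely used synaptic vesicle markers, did not pass the test. Voltage-gated channels gave 6 higher and 3 lower of 28, among them KCNAB1, a potassium channel beta subunit, which went from 8.95, 8.22 and 8.46 to 11.65, 11.48 and 11.03. KCNK3, a background leak channel, went the other way, from 8.91, 8.71 and 8.77 to 6.46, 6.84 and 6.56. Neurotransmitter receptors gave 6 higher and 3 lower of 27, with CHRM3, a muscarinic receptor, rising by 1.90.

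Axon guidance genes moved in both directions, 9 of 53 higher and 8 lower (12 and 5 with median scaling), with a median of 0.01. The semaphorin SEMA3F was at least 3.03-fold higher and the ephrin receptor EPHA5 at least 2.21-fold higher. UNC5A, a netrin receptor, fell by 1.47, from 10.19, 9.88 and 10.27 to 8.90, 8.87 and 8.16. Adhesion genes gave 6 higher and 6 lower of 31 (11 and 5 with median scaling). Both polysialyltransferases were called, in opposite directions. ST8SIA2 fell from 9.27, 9.31 and 9.50 to 7.28, 7.70 and 6.91, while ST8SIA4 rose from 4.88, 5.45 and 5.95 to 7.74, 7.05 and 7.20. Their substrate NCAM1 fell by 0.85 with its brightest probe and by 0.34 to 0.04 with the others, and its relative NCAM2 rose by 1.63.

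Of 72 actin regulators 18 rose and 7 fell, with a median of 0.24 (26 and 7 with median scaling). Subunits of the Arp2/3 complex were among the smaller increases, with ARPC1B at 1.20, ARPC1A at 0.67 and ARPC2 at 0.62. CALD1, caldesmon, which binds actin and tropomyosin, went from 10.37, 10.41 and 10.90 to 7.08, 7.01 and 6.54. Its decrease by 3.68 held for some of its probes, and others ranged up to 0.15. EZR, ezrin, a relative of moesin, fell by 0.93 while MSN rose, with values of 12.06, 12.00 and 12.34 in WT and 11.33, 11.35 and 10.94 in DoxR-v cells. Tubulins and microtubule proteins gave 12 higher and 8 lower of 54. TUBA4A went from 6.53, 6.63 and 6.19 to 9.61, 8.85 and 9.63, TUBB4A from 6.49, 6.51 and 6.74 to 9.30, 9.35 and 9.34, and TUBB6 rose by 1.03. MAP7, which recruits kinesin to microtubules, fell by 2.03 and STMN4, a microtubule-destabilizing stathmin, by 1.70.

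Mesenchymal and matrix genes were called lower in 13 and higher in 8 of 49. With median scaling 12 were higher and 8 lower. The list's median relative to all genes was -0.08 with quantile normalization and -0.19 with median scaling. VIM, vimentin, rose from 9.34, 9.37 and 9.50 to 12.17, 11.51 and 11.47, an increase of 2.31 ± 0.17. LUM, the proteoglycan lumican, rose by 2.79 ± 0.18, to 12.30, 11.79 and 11.87 from WT signals that did not exceed 9.46, and DCN, decorin, by 1.35. TGFBR2, the type II TGF-beta receptor, was at least 4.62-fold higher. LAMA4, a laminin chain, was undetected in DoxR-v cells against 8.23, 7.84 and 8.01 in WT, at least 5.58-fold lower. SPARC, a collagen-binding matrix protein, fell by 1.84 and NES, the intermediate filament nestin, by 1.21. Of 11 measured fibroblast and endothelial markers, 7 passed the detection filter, LUM and DCN among them. The summed signal of these 7 was 4674 to 5358 in WT and 8407 to 11991 in DoxR-v cells. The fibroblast markers COL1A1, COL1A2, COL3A1 and PDGFRA and the endothelial markers PECAM1, CDH5 and VWF were detected on no array of either group. THY1 and ACTA2 were detected, like LUM and DCN, on every array of both groups. ACTA2 was called lower, though not with the authors' normalized values (-0.53). A wider list of fibroblast and endothelial markers gave 2 higher and 2 lower of 9.

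**Figure D2:**
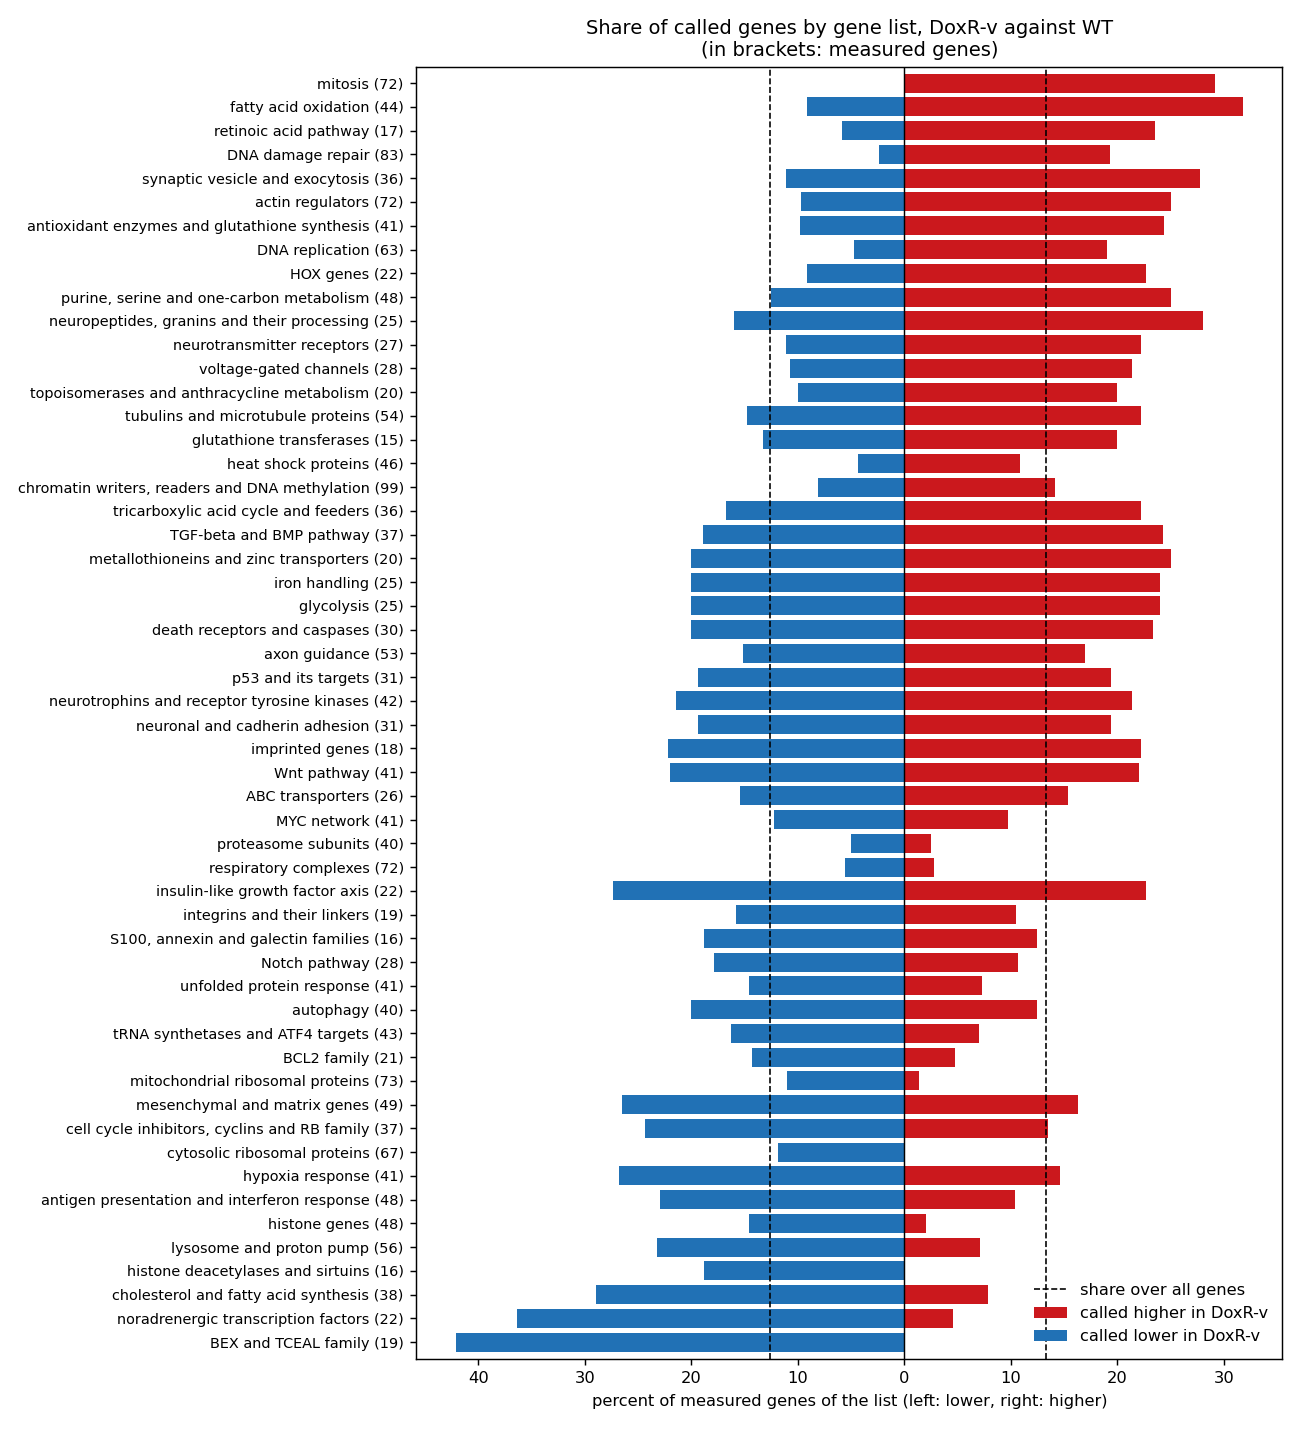
Percent of the measured genes of each list with at least 15 measured genes that were called higher (right, red) or lower (left, blue) in DoxR-v against WT cells, with the number measured in brackets and dashed lines at the shares over all genes, 13.3% and 12.6%. Mitosis and fatty acid oxidation stand at one end with 29.2% and 31.8% higher, and the BEX and TCEAL family at the other with 42.1% lower.

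Of 72 mitotic genes, 21 were called higher, 29.2% against 13.3% of all genes, 0 were lower and 51 were not called, with a median of 0.29, and leaving out 1 array at a time gave 19 to 25 higher and 0 to 2 lower. The individual differences were mostly modest. KIF15, a spindle kinesin, went from 6.44, 6.80 and 7.21 to 8.58, 8.80 and 8.29. FOXM1, the factor that drives G2/M genes, rose by 0.93, MKI67, the proliferation antigen, by 0.82 and AURKA, a mitotic kinase, by 0.67. DNA replication genes gave 12 higher and 3 lower of 63. POLD1, the catalytic subunit of polymerase delta, rose by 1.01 and MCM10, a replication initiation factor, by 0.84. PCNA, the replication clamp, had overlapping groups and differed by 0.08. TYMS, thymidylate synthase, went from 11.31, 11.70 and 11.83 to 12.46, 12.29 and 12.37.

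Cyclins and cell cycle inhibitors leaned the other way, 5 higher and 9 lower of 37, although 10 were higher and 5 lower with median scaling. The list's median relative to all genes was -0.04 with quantile normalization and -0.09 with median scaling. CDKN1A, the p21 inhibitor, went from 10.51, 10.33 and 10.30 to 9.18, 9.16 and 9.23. It decreased by 1.19, and DoxR and WT-v cells were lower still, averaging 5.84 and 5.85. CCNO, cyclin O, was at least 5.86-fold higher. Targets of p53 were split, 6 higher and 6 lower of 31. PLK2, a polo-like kinase, was at least 2.74-fold higher, whereas SESN1, sestrin 1, went from 7.67, 8.01 and 7.98 to 6.11, 6.05 and 6.28. TNFRSF10B, the TRAIL death receptor 5, fell by 1.78. In the BCL2 family 1 gene rose and 3 fell of 21, which became 3 and 0 with median scaling and 0 and 0 with the authors' normalized values. GSDME, a gasdermin cleaved by caspase 3, rose by 2.19, from 8.36, 7.74 and 7.52 to 10.16, 10.06 and 9.98, within a list of death receptors and caspases that gave 7 higher and 6 lower of 30. CASP8, the initiator caspase of death receptors, was detected on no array of either group.

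DNA repair genes were called higher in 16 and lower in 2 of 83 (30 and 1 with median scaling, 4 and 2 with the authors' normalized values), and leaving out 1 array gave up to 7 lower, the most without WT replicate 3. XRCC3, a protein of homologous recombination, rose by 1.52 ± 0.20, from 7.06, 7.16 and 7.45 to 8.58, 9.16 and 8.48. POLB, the polymerase of base excision repair, fell by 1.07. Of 20 topoisomerases and anthracycline-metabolizing enzymes 4 rose and 2 fell. TOP2A, the doxorubicin target of dividing cells, went from 11.48, 11.53 and 11.82 to 12.21, 12.36 and 12.36, a rise of 0.70 ± 0.14 (adjusted p = 0.0029). TOP2B, its constitutive relative, rose by 0.74. NQO1, a quinone reductase, went from 8.29, 8.55 and 8.51 to 10.23, 9.99 and 10.20. AKR1C2, an aldo-keto reductase whose close relatives may share its probe, fell by 2.59, whereas DoxR cells were above WT, at a mean of 13.02 against 10.01.

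ABC transporters gave 4 higher and 4 lower of 26, 15.4% each way, which is near the shares over all genes (9 and 2 with median scaling, 2 and 4 with the authors' normalized values). ABCB1, P-glycoprotein, the efflux pump that exports doxorubicin, measured 10.19, 10.22 and 10.70 in WT and 11.62, 11.48 and 11.26 in DoxR-v cells. The increase of 1.08 ± 0.16 (adjusted p = 3.2e-04) compared with a DoxR mean of 12.51 and a WT-v mean of 10.56. ABCC5, a nucleotide analog exporter, fell by 1.89, from 9.73, 9.69 and 9.59 to 7.89, 7.83 and 7.62. ABCC9, the regulatory subunit of a potassium channel, fell by 2.53 by its brightest probe and by 0.43 by another. Among 15 glutathione transferases GSTO2 rose by 1.83, MGST2 fell by 1.83 and GSTP1, the main cytosolic form, went from 13.55, 13.60 and 13.40 to 12.39, 12.40 and 12.75.

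Antioxidant and glutathione genes were higher in 10 and lower in 4 of 41. PON2, a paraoxonase of inner membranes, went from 8.31, 8.50 and 8.26 to 10.71, 10.65 and 10.82, a rise of 2.37 ± 0.14. HMOX1, heme oxygenase 1, was undetected in WT cells and at 7.51, 6.95 and 7.64 in DoxR-v cells, at least 3.31-fold higher. GPX4, which reduces lipid peroxides, rose by 0.82 and GSS, glutathione synthetase, by 1.04. MSRA, which repairs oxidized methionine, was at least 2.06-fold lower, but not with the authors' normalized values. GCLC, the rate-limiting enzyme of glutathione synthesis, was lower by 0.49, short of the fold limit, and CAT and SOD2 did not pass the test.

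Of 44 fatty acid oxidation genes 14 were higher, 31.8% against 13.3% of all genes, and 4 lower, with a median of 0.28 (20 and 1 with median scaling, 6 and 3 with the authors' normalized values). ECI2, an enoyl-CoA isomerase, went from 8.07, 8.38 and 8.06 to 10.92, 11.01 and 11.07, while DoxR cells were at 5.06. ACOT4, a peroxisomal thioesterase, rose by 2.50, ACAD11 by 1.13, CPT2, which completes carnitine import, by 0.82 and ACADM, the medium-chain dehydrogenase, by 0.70. CPT1A, the regulated step of import, did not pass the test (0.50, adjusted p = 0.12). Cholesterol and fatty acid synthesis gave 3 higher and 11 lower of 38, 28.9% lower against 12.6% of all genes, with a median of -0.20. With median scaling this list had 7 higher and 9 lower, and its median was 0.10 against 0.23 over all genes. HMGCS1, which makes the precursor of mevalonate, went from 11.41, 11.43 and 11.68 to 9.95, 9.72 and 10.12. Later steps fell as well, MSMO1 by 1.85, NSDHL by 1.75, EBP by 1.52 and DHCR7 by 0.98. Against this direction stood CYP51A1, lanosterol demethylase, with an increase of 1.00, ACSS2, acetyl-CoA synthetase, with 1.18, and the regulator SREBF1 with 0.84. NSDHL and EBP are X-linked and CYP51A1 lies in the chromosome 7 stretch described below.

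In glycolysis and the hypoxia response 1 WT array stood apart. Hypoxia genes were called higher in 6 and lower in 11 of 41, with median scaling 11 and 5. NDRG1, a hypoxia-induced gene, measured 9.42, 6.65 and 7.36 in WT cells and was undetected in DoxR-v cells, at least 4.80-fold lower. VEGFA, the angiogenic growth factor, went from 8.39, 8.05 and 7.78 to 6.17, 6.20 and 5.55. ALDOC, a neuronal aldolase, fell by 1.57, from 11.29, 10.27 and 10.15 to between 8.95 and 9.06. WT replicate 1 stood above the other WT arrays for NDRG1 and ALDOC. Without it the hypoxia list gave 7 higher and 9 lower, and glycolysis 5 higher and 2 lower in place of 6 and 5. The transcripts of the factors themselves rose, EPAS1 (HIF-2 alpha) by 1.85, from 8.26, 6.68 and 7.16 to 9.06, 9.87 and 8.71, and HIF1A by 0.79. These arrays do not measure protein. The paper reports that HIF-1 alpha protein in this line, under conditions mimicking hypoxia, was raised in DoxR but not in DoxR-v cells. PFKP and PFKL, phosphofructokinases, rose by 1.83 and 1.43, and PFKFB3, which makes their activator, by 1.99.

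The remaining metabolic lists were mixed. The tricarboxylic acid cycle and its feeders gave 8 higher and 6 lower of 36, among them SDHA, a succinate dehydrogenase subunit, at 0.83, and the X-linked IDH3G at -1.17 and PDK3 at -1.32. Respiratory complexes gave 2 higher and 4 lower of 72, and the number lower was 8 without WT replicate 3 and 9 without DoxR-v replicate 3. ADA, adenosine deaminase, rose by 1.75 from 7.24, 7.08 and 7.01 to 8.73, 9.28 and 8.56, within a purine, serine and folate list of 12 higher and 6 lower of 48. ASS1, argininosuccinate synthase, rose by 1.22 with its brightest probe, while its other probes differed by 0.09 to 1.16. ATF5, a stress-responsive factor, fell by 1.74. ATF4 itself had overlapping groups and a difference below 0.01 in size.

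Cytosolic ribosomal protein genes were higher in 0 and lower in 8 of 67, 11.9% against 12.6% of all genes, with a median of -0.06. The largest decrease was that of RPL34, from 11.92, 12.18 and 11.63 to 9.97, 10.03 and 10.61. Ribosomal protein genes have many processed copies that probes may not separate. Lysosomal genes gave 4 higher and 13 lower of 56, and leaving out 1 array left 1 to 5 higher. With median scaling the counts were 12 and 6, but the list's median relative to all genes was -0.03 under both scalings. SCARB2, the receptor that carries glucocerebrosidase to lysosomes, went from 12.48, 12.35 and 12.58 to 10.86, 10.76 and 10.81. ATP6AP1, an accessory subunit of the proton pump, fell by 1.39. Autophagy genes were 5 higher and 8 lower of 40, and 8 were higher without WT replicate 3 or DoxR-v replicate 3. With median scaling 11 were higher and 5 lower. This list's median relative to all genes was -0.12 with quantile normalization and -0.07 with median scaling. ATG5, part of the conjugation machinery, went from 8.04, 8.08 and 8.02 to 6.13, 6.07 and 6.34, and MAP1LC3A, its downstream target on membranes, from 9.79, 9.79 and 9.41 to 10.94, 11.26 and 10.97. SQSTM1, the cargo receptor p62, fell by 0.96.

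Heat shock proteins gave 5 higher and 2 lower of 46, with median scaling 11 and 1, and the number higher was 13 without WT replicate 3 and 10 without DoxR-v replicate 3. Without WT replicate 1, 4 were lower. Among them was HSP90AA1, the inducible HSP90, which rose by 0.83 from 13.71, 13.61 and 14.05 to 14.79, 14.42 and 14.64. HSPA1B rose by 0.95 while its near-identical neighbor HSPA1A did not pass the test at -0.29, and their probes may not be separate measures. BAG3, a cochaperone of HSP70, fell by 2.15, from 9.52, 9.50 and 9.51 to 7.64, 7.71 and 6.75. Genes of the unfolded protein response gave 3 higher and 6 lower of 41, and 1 higher without DoxR-v replicate 1. WFS1, wolframin, fell by 2.36, and HSPA5, the ER chaperone BiP, was lower by 0.33 without being called.

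Because vorinostat acts on histone deacetylases, their genes were read individually. Of 16 deacetylases and sirtuins 0 were called higher and 3 lower, against 4 and 1 with median scaling and 0 and 0 with the authors' normalized values. HDAC2 measured 11.85, 11.70 and 12.07 in WT and 11.27, 11.39 and 11.17 in DoxR-v cells, lower by 0.60, with another probe at -0.09. HDAC8, which is X-linked, was lower by 0.93, from 6.93, 6.48 and 6.95 to 5.50, 6.15 and 5.92, and SIRT5 by 0.66. HDAC1 (-0.21), HDAC3 (-0.42) and HDAC6 (-0.48) were not called. The paper lists HDAC1 to HDAC8 as not differing significantly in any comparison, unlike the calls of HDAC2 and HDAC8 here. Chromatin writers and readers gave 14 higher and 8 lower of 99, shares near those over all genes, with median scaling 27 and 1 and with the authors' normalized values 5 and 2. DNMT3B, a de novo DNA methyltransferase, went from 6.13, 6.37 and 6.77 to 7.65, 7.84 and 7.74, EZH2, which trimethylates histone H3 lysine 27, rose by 0.76, and the acetyl-lysine reader BRD2 fell by 0.79. Histone genes gave 1 higher and 7 lower (14.6%) of 48, with median scaling 2 and 2, and the number lower was 15 without WT replicate 3. H2AJ was called at -1.19.

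Growth factor pathways held large differences in both directions. In the TGF-beta and BMP pathway, 9 of 37 rose and 7 fell. ENG, endoglin, a TGF-beta coreceptor, was at least 3.83-fold higher, and BMP7 was at least 2.24-fold lower. In the Wnt pathway 9 of 41 rose and 9 fell (10 and 5 with median scaling), and 5 fell without DoxR-v replicate 3. DKK1, a secreted antagonist, went from 8.55, 7.72 and 7.95 to 10.09, 10.48 and 10.08, and TCF7L2, a nuclear effector, rose by 2.05. The Notch ligand JAG2 rose by 2.55, from 6.09, 6.09 and 6.58 to 8.89, 8.76 and 8.77. In the retinoic acid pathway 4 of 17 rose and 1 fell, with a median of 0.37. ALDH1A3, which makes retinoic acid, was at least 1.86-fold higher, and the receptor RARB at least 1.61-fold higher, the latter not with the authors' normalized values.

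Insulin-like growth factor genes gave 5 higher and 6 lower of 22 (6 and 5 with median scaling), and 3 higher without DoxR-v replicate 1. IGFBP3, a binding protein, was at least 3.36-fold higher, and IGFBP4 went from 9.29, 9.64 and 9.37 to 7.34, 7.78 and 7.85. STC1, stanniocalcin 1, fell by 1.89. Among 42 neurotrophins and receptor tyrosine kinases 9 rose and 9 fell. The related heparin-binding growth factors PTN and MDK moved apart, PTN from 8.45, 8.35 and 8.22 to 9.79, 9.48 and 9.97, and MDK from 10.12, 10.50 and 10.10 to 8.47, 8.69 and 8.86. PDGFRB, a platelet-derived growth factor receptor, fell by 2.39 and GAS6, a ligand of AXL, by 2.17. RET, the receptor of the GDNF family, rose by 0.66 by its brightest probe, with others from -0.36 to 0.26, and ALK did not pass the test (0.19).

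Interferon and antigen presentation genes were lower in 11 and higher in 5 of 48. The list's median relative to all genes was -0.15 with quantile normalization and -0.17 with median scaling. With median scaling the count was 7 lower and 11 higher. Without WT replicate 3 it was 17 lower and 9 higher, and without DoxR-v replicate 3 also 9 higher. ISG15, an interferon-induced modifier, measured 7.41, 7.71 and 6.77 in WT cells and was undetected in DoxR-v cells, at least 3.37-fold lower. OAS1, an RNA sensor, went from 7.36, 7.33 and 7.19 to undetected, also at least 3.37-fold lower. IFI16 and IFIT1 went the other way, IFIT1 by 1.23. B2M, the common light chain of class I molecules, had overlapping groups and differed by -0.05.

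Genes on the X chromosome were lower in DoxR-v cells. Of 435 measured, 14 were called higher and 170 lower, 39.1% against 12.6% of all genes (26 and 92 with median scaling), and 79.8% had a difference below 0. The median over X genes, relative to the mean of the WT arrays, was -0.49, -0.45 and -0.45 on the 3 DoxR-v arrays and -0.02, -0.02 and 0.04 on the WT arrays. On the WT-v arrays it was -0.43, -0.44 and -0.45, and on the DoxR arrays -0.30, -0.27 and -0.24. The shift was spread along the chromosome. Divided into 9 consecutive blocks of 48 or 49 genes, the lowest block median was -0.55 and the highest -0.35, with 13 to 23 genes lower in every block. Members of the BEX and TCEAL family, small X-linked proteins of neurons, followed it. Of the 19 measured 0 were higher and 8 lower, with a median of -0.39 (1 and 5 with median scaling). BEX2 went from 10.62, 10.61 and 10.25 to 8.88, 8.62 and 9.12 and TCEAL9 fell by 1.39, whereas BEX1 at -0.39 and TCEAL3 at -0.18 were not called. X genes that rose against this shift included MSN, CAPN6, a calpain-like protein, at 3.33, and MAOA.

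**Figure D3:**
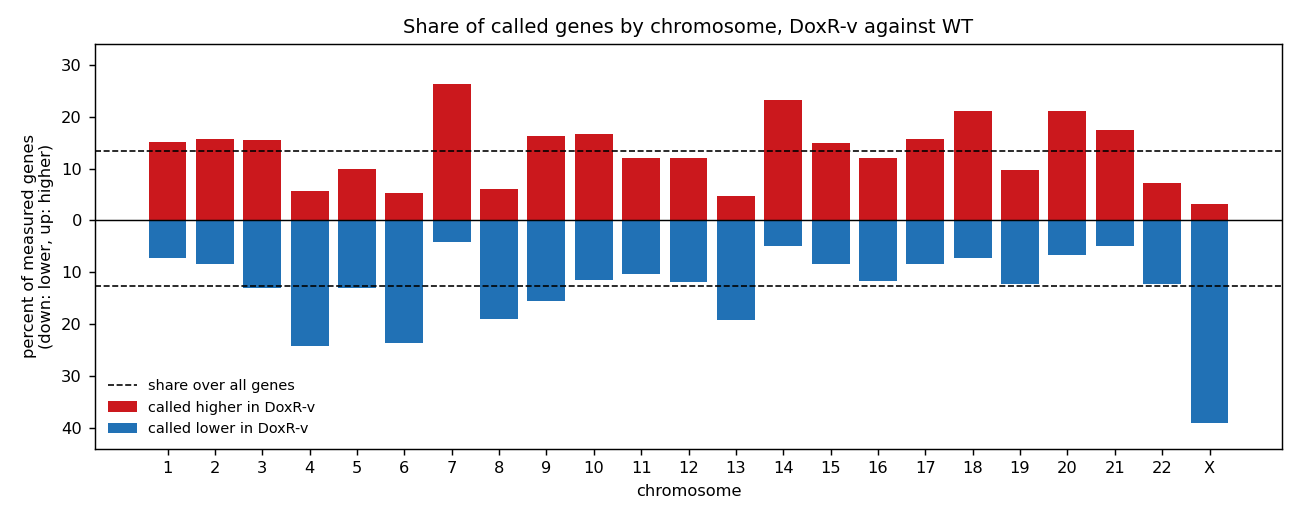
Percent of the measured genes on each chromosome that were called higher (up, red) or lower (down, blue) in DoxR-v against WT cells, with dashed lines at the shares over all genes. The X chromosome had 39.1% lower and 3.22% higher, and chromosome 7 had 26.2% higher and 4.09% lower.

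Autosomes departed from the whole in both directions as well. Chromosome 6 had 145 of 613 genes lower and 32 higher (median -0.30, with median scaling 79 and 61), and chromosome 4 had 108 of 446 lower and 25 higher (median -0.25, with median scaling 58 and 57). On chromosome 7, 154 of 587 genes were higher and 24 lower (median 0.27), and on chromosome 14, 93 of 399 were higher and 20 lower (median 0.28). For chromosomes 7 and 14 the 3 DoxR-v arrays gave 0.26, 0.30 and 0.27, and 0.28, 0.28 and 0.26, whereas the arrays of DoxR cells gave 0.01, 0.02 and -0.03, and -0.11, -0.14 and -0.14. On the WT-v arrays chromosome 7 gave 0.07, 0.11 and 0.09, and chromosome 14 gave 0.04, 0.11 and 0.06. Chromosome 20 had 70 higher and 22 lower of 331, with 0.20, 0.27 and 0.12 on the DoxR-v arrays. Within chromosome 4 the median of the first 4 blocks of about 50 genes lay between -0.13 and 0.02, and from NUP54 on it lay between -0.27 and -0.46. DNA copy number was not measured, and its part in these medians was not tested.

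**Figure D4:**
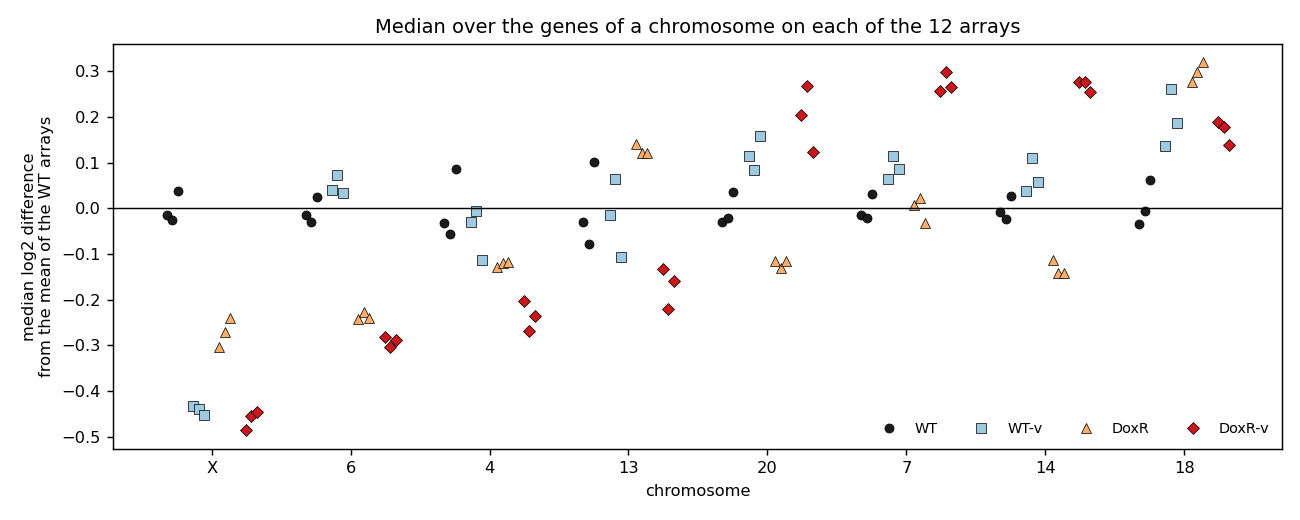
Median over the genes of 8 chromosomes of the log2 difference from the mean of the WT arrays, with 1 point for each of the 12 arrays. The DoxR-v arrays lay at 0.26 to 0.30 for chromosome 7 and at -0.49 to -0.45 for the X chromosome, where the WT-v arrays also lay at -0.45 to -0.43.

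Runs of neighboring genes that changed together were then looked for. A stretch was every window of 15 consecutive measured genes with at least 10 called in 1 direction, merged where windows overlapped, with the gene order of RefSeq on GRCh38.p14. The genome build behind the array's probes is not given in the sources used here, so only names and order are stated. The rule found 10 stretches, and in their counts higher and lower mean called higher and called lower. They were chosen by their values, so their counts are a description without a test. Comparisons of DoxR-v with DoxR or WT-v reuse the DoxR-v arrays, and those of DoxR or WT-v with WT reuse the WT arrays. A count above the share over all genes can follow from that choice in these comparisons too. With the authors' normalized values, where fewer genes were called (626 higher and 689 lower), the same rule found 1 stretch.

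The longest was on chromosome 6, from LIN28B to HDAC2, where 32 of 40 genes were called lower, all 40 had a negative difference and the median was -1.14. The 3 DoxR-v arrays gave medians of -1.15, -1.12 and -1.20, the WT-v arrays 0.02, 0.05 and 0.07, and the DoxR arrays -0.33, -0.27 and -0.36. In direct comparisons DoxR-v was called lower than DoxR in 26 of the 40 genes, where 29.1% of all genes were called and 14.4% were lower. It was called lower than WT-v in 30, where 25.4% of all genes were called and 12.8% were lower. LIN28B, which blocks let-7 processing and is known in neuroblastoma, fell from 11.13, 11.17 and 11.37 to 9.37, 9.45 and 9.18, a decrease by 1.89 ± 0.13 (adjusted p = 4.2e-07). FYN, a Src-family kinase of neurons, went from 8.97, 9.19 and 9.33 to 7.17, 7.02 and 7.27. SOBP fell by 2.24, CDK19, a Mediator kinase, by 1.99 and FOXO3, a forkhead factor that promotes autophagy genes, by 1.51. The stretch held CD24, LAMA4, ATG5, SESN1 and HDAC2, named above in other lists. The call of HDAC2, at its end, was lost without WT replicate 3 or DoxR-v replicate 3, with median scaling, without background correction, with the mean of its probes and with the authors' normalized values.

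**Figure D5:**
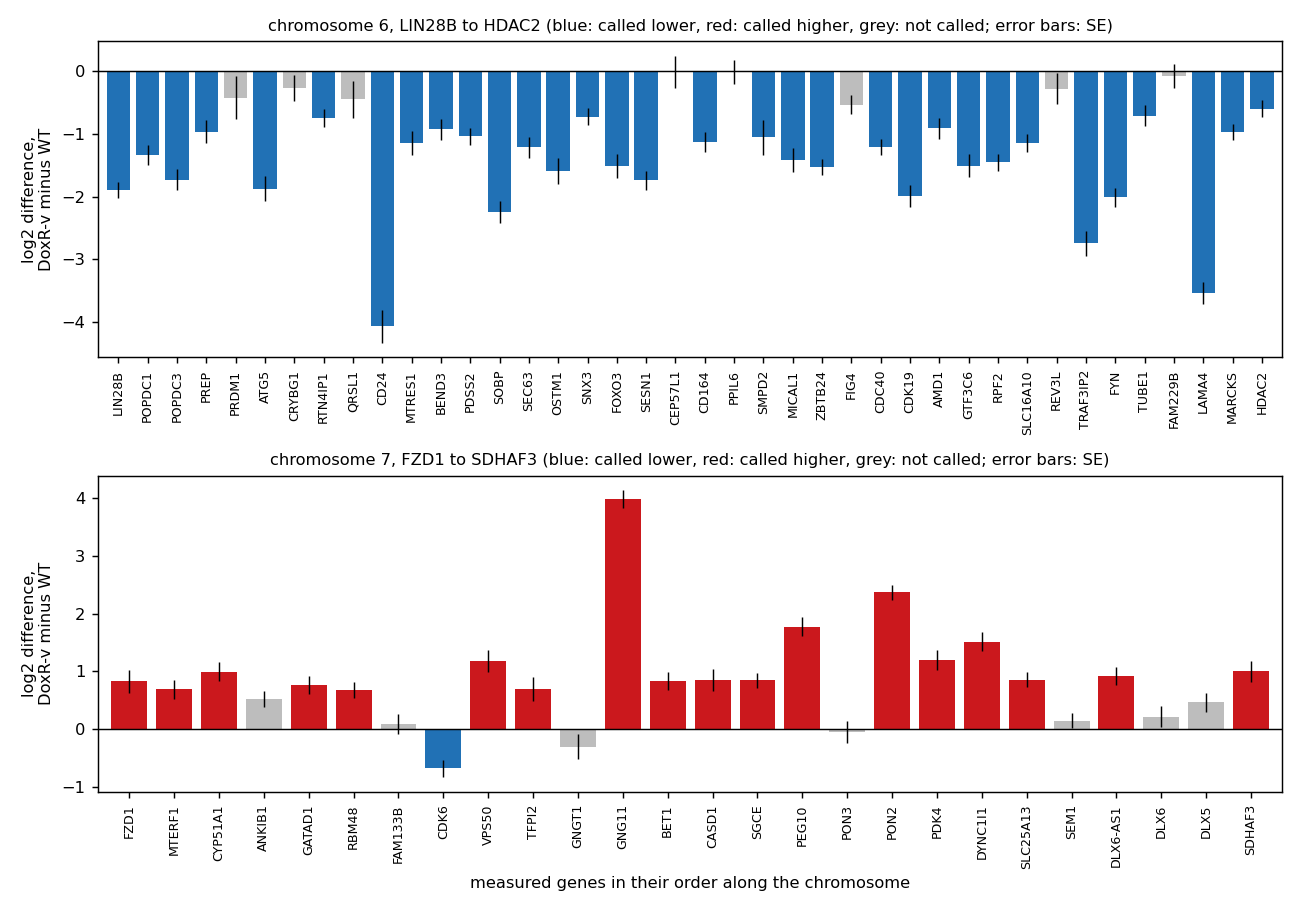
Log2 difference of DoxR-v minus WT cells, with its standard error, for each measured gene in chromosomal order, from LIN28B to HDAC2 on chromosome 6 (top) and from FZD1 to SDHAF3 on chromosome 7 (bottom). In the upper stretch 32 of 40 genes were called lower and 0 higher, and in the lower one 18 of 26 were called higher and CDK6 lower.

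The chromosome 7 stretch ran from FZD1 to SDHAF3, with 18 of 26 genes higher and a median of 0.83. Its array medians were 0.84, 0.83 and 0.73 in DoxR-v cells, 0.40, 0.46 and 0.49 in DoxR cells and 0.01, 0.17 and -0.05 in WT-v cells. It did not contain ABCB1, but with windows of at least 14 of 25 genes the stretch ran from TMEM243 to ARPC1B, with 28 of 50 genes higher, and ABCB1 lay in it. GNG11 and PON2 gave the largest differences, followed by the imprinted retrotransposon-derived gene PEG10, from 9.47, 9.95 and 9.75 to 11.49, 11.29 and 11.70. DYNC1I1, a neuronal dynein chain, rose by 1.52 and VPS50, an endosomal recycling protein, by 1.18. CDK6, a kinase of the G1 phase, was the only gene of the stretch called lower, at -0.68. Besides PEG10, the imprinted neighbor SGCE rose by 0.84.

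On chromosome 9, 18 of 25 genes from CCDC107 to IGFBPL1 were lower (median -0.72). In WT-v cells 18 of them were called lower than WT too, with a median of -0.92. In that comparison 27.1% of all genes were called and 12.5% were lower. DoxR-v was called lower than WT-v for 2. GBA2, a glucosylceramidase, fell by 1.35, from 7.92, 7.94 and 8.05 to 6.57, 6.76 and 6.53. CREB3, RECK and IGFBPL1 fell by 1.20, 1.17 and 1.12. With the authors' normalized values they fell by less, at -0.42, -0.54 and -0.52. They missed the fold limit there while passing the limit on adjusted p (9.8e-04, 1.6e-04 and 1.7e-03, limma). On chromosome 19, 15 of 21 genes from ZNF419 to ZNF544, nearly all of them zinc finger genes, were lower (median -0.82). The DoxR group was lower here too, with 14 genes called lower than WT and a median of -0.90. In that comparison 33.7% of all genes were called and 16.3% were lower. WT-v cells gave a median of 0.03. ZIK1 fell by 1.90, ZNF256 by 1.88 and ZNF274 by 1.33. Zinc finger genes of this cluster are close in sequence, and cross-hybridization between them was not tested.

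Both a chromosome 2 and a chromosome 20 stretch moved in DoxR-v cells while the medians of the other groups stayed near WT. From TPRKB to MRPL53 on chromosome 2, 11 of 16 genes were lower, with a median of -0.82 against -0.04 for the DoxR and -0.13 for the WT-v group. DoxR-v was called lower than DoxR in 13 of these genes (14.4% of all genes were) and called lower than WT-v in 12 (12.8%). TPRKB, a subunit of the KEOPS tRNA-modifying complex, went from 9.29, 9.72 and 9.13 to 7.68, 7.92 and 8.26. MRPL53, a mitochondrial ribosomal protein, fell by 1.13. From RALY to PROCR on chromosome 20, 10 of 15 genes were higher, with a median of 0.79 against 0.11 for the DoxR and 0.06 for the WT-v group. DoxR-v cells were called higher than DoxR cells in 9 genes (14.7% of all genes were) and called higher than WT-v cells in 9 (12.6%). RALY, an RNA-binding protein, went from 10.22, 10.51 and 10.27 to 11.22, 11.44 and 11.23. MAP1LC3A, ACSS2 and GSS lie in it. On chromosome 1, 11 of 15 genes from HPCA to CLSPN were higher (median 0.76), with ZMYM6 at 1.03, but the authors' normalized values called 1 of them.

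The X chromosome held 3 stretches of lower genes beyond its general shift. From PUDP to MOSPD2, 10 of 15 genes were lower (median -0.76), and 11 were called lower in WT-v than in WT cells (median -1.27). TMSB4X lies there, as does MID1, a ubiquitin ligase of microtubules, which was at least 4.48-fold lower. From PTCHD1 to DMD, 10 of 15 were lower (median -0.78). WT-v and DoxR cells were below WT there too, with medians of -0.65 and -0.45. In WT-v cells 9 genes were called lower than WT (12.5% of all genes were) and in DoxR cells 5 (16.3%). DoxR-v was called lower than DoxR for 3 (14.4%) and lower than WT-v for 5 (12.8%). SAT1, which acetylates polyamines, went from 9.67, 9.46 and 9.19 to 8.43, 8.33 and 8.46, and PRDX4, an ER peroxiredoxin, fell by 0.86. From ARHGAP4 to MPP1, 13 of 20 were lower (median -0.69), but DoxR and WT-v cells were above WT there, with medians of 0.32 and 0.20. DoxR-v was called lower than DoxR for 15 (14.4% of all genes were) and called lower than WT-v for 17 of these genes (12.8%). MPP1, a membrane scaffold protein, went from 8.92, 8.84 and 9.14 to 7.09, 7.11 and 7.04, and RENBP, an N-acetylglucosamine epimerase, fell by 1.55.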

How the data were processed

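Total RNA of SK-N-Be(2)C cells was hybridised to Illumina HT-12 bead arrays, 3 per group. The authors deposited non-normalized probe intensity signals with a detection p-value for each probe and array, and a table of linear normalized intensities with the same distribution on every array; lumi 2.13.3 under R 3.0.1 is listed by the submitters in their notes on processing, without the order of its steps. From the deposited signals of 47323 probes, background was corrected with normexp on the detection p-values (offset 16) in limma 3.58.1 (R 4.3.3), intensities were quantile normalized and the log2 taken. A total of 21730 probes with a detection p under 0.01 on at least 1 of 12 arrays were kept. One mean per group was fitted to all 12 arrays (lmFit, eBayes), with Benjamini-Hochberg adjustment over all kept probes. A gene took its brightest kept probe. A fold change over 1.5 with an adjusted p under 0.1 made a gene called.

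Probes were named by the platform table, with symbols, chromosomes and gene order from RefSeq; 17202 probes had no gene there and 8 had several, and none of these was named. In data simulated on 21730 probes for DoxR-v against WT, 71 of 100 probes changed by 1 on the log2 scale and 100 of 100 changed by 2 were called, with 10 of 21530 unchanged probes. The simulated noise was independent between probes, and far fewer probes were changed than the 5126 called in the data. The adjusted p depends on that share, so these rates do not carry over to the calls made here. The naming rule took the 20 largest increases and the 20 largest decreases with separate groups outside the published gene list for DoxR-v cells. In each gene list used here it took up to 6 called genes with separate groups plus the list's defining members. In each stretch it took up to 6 called genes. Not all of these are named, and further list members were named after their values were seen. The members and gene lists were chosen with earlier results of these data known. The alternatives tried were the authors' normalized values, no background correction, an offset of 50, median scaling, other detection filters, the 6 arrays alone, a replicate block, the mean of a gene's probes, stricter limits, other windows and each array left out. The number of arrays limits the precision.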

Additional observations from a re-analysis of the deposited data

How the results depend on the processing

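The count of genes called in DoxR-v against WT cells was 626 higher and 689 lower with the authors' normalized values, 803 and 853 without background correction, 3206 and 778 with median scaling, and 540 and 533 at a fold change over 2. No gene called here was called in the opposite direction under any alternative, and 1311 of the 3138 calls were shared with the authors' normalized values and 2387 with median scaling. Leaving out 1 array at a time gave 1462 to 1922 higher and 1479 to 1760 lower genes and 8 to 13 stretches in place of 10. The stretches numbered 1 with the authors' normalized values and 3 with windows of at least 10 of 12 genes. On every array the authors' linear values had a minimum of 115.5 and a median of 149.1. This leaves little room for a fold change among weak signals, so a call missing there can reflect the fold limit alone. Of the 370 called genes that met the naming rule, not all of which are named here, 105 were not called with the authors' normalized values, 69 without background correction, 28 with median scaling and at most 9 without any 1 array. Replicates with the same number in both groups deviated from their group means with correlations of -0.14, -0.12 and -0.27. These values showed no pairing by number, but with so few arrays they cannot settle whether arrays shared a batch. With the replicate block 1611 genes were higher and 1526 lower. Genes near background were limited by detection, since 614 called genes were undetected on all arrays of 1 group.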
